A study of Caenorhabditis elegans with 33 samples.

Results

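The genes described here are 7 members of the Myc-family network of the nematode Caenorhabditis elegans: the Mondo-like mml-1 with its partner mxl-2, the Mad-like mdl-1 with its partner mxl-1, and the related factors sbp-1, hlh-30 and mxl-3. They were matched by gene symbol in the deposited tables, with no measured value in the rule, and make up 7 of the 17907 genes there. All 7 were counted well enough to enter the test, which took in 17354 genes; their lowest count in any library was 79 reads, for mxl-2 in a strain that carries a mutation of it.

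These genes encode helix-loop-helix leucine zipper transcription factors, which bind E-box DNA as dimers. MML-1 is the worm relative of the mammalian MondoA and ChREBP proteins and works as a heterodimer with MXL-2, a relative of Mlx. MDL-1, a relative of Mad, pairs with MXL-1, a relative of Max, and the pair is known as a repressor that acts against MML-1 and MXL-2 in worm lifespan. MXL-3 is a Max-like factor that represses lysosomal lipase genes in fed worms, while HLH-30, the worm relative of TFEB, activates lysosomal and autophagy genes in fasting. SBP-1 is the worm sterol regulatory element binding protein, which drives fatty acid synthesis and desaturation.

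Polyadenylated RNA of whole hermaphrodites at adult day 2 was sequenced from 4 strains on 3 feeding treatments, in 33 libraries and 12 groups. The strains were N2 (wild type), mxl-2(tm1516), eat-2(ad465), which eats less because its pharynx pumps slowly and so models dietary restriction, and eat-2(ad465);mxl-2(tm1516), called the double mutant here. The food was HT115(DE3) bacteria with either the empty vector L4440 (EV) or an RNAi construct for daf-16 (encoding the FOXO factor of insulin signalling) or for pha-4 (encoding a FOXA factor). Larvae were kept at 16 °C up to the L4 stage and later at 20 °C, and all groups received 5-fluorodeoxyuridine (FUdR), which blocks production of progeny, so no group is free of that drug. Each library pooled about 3000 animals of a separately synchronised population. Each group had 3 libraries, except the 3 groups of eat-2, which had 2. The series title asks about Myc-family factors in the response to dietary restriction. No sequence of these genes is printed, because the sources used here held none.

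Library totals ran from 20199019 to 31483909 counts, with a median of 27962315. Expression is given as CPM (read counts relative to the library total) scaled by trimmed-mean-of-M-values (TMM) factors, which allow a gene to be compared between libraries. Several libraries stood apart or went against their labels. The mean log2 CPM of 14 germline and oocyte markers was 6.68 in eat-2 EV replicate 2 and 6.60 in eat-2 daf-16 RNAi replicate 1, against 6.92 to 9.62 in the other 31 libraries, and these libraries also had the highest TMM factors, 1.457 and 1.565. In the double mutant on daf-16 RNAi the same markers spanned 6.92 to 8.57. Major sperm protein transcripts, from 31 genes, were at a mean log2 CPM of 3.79 to 4.12 in N2 EV but -2.79 and -0.30 in eat-2 EV, and from -1.26 to 5.44 in mxl-2 EV. In the double mutant they were at 4.09 to 4.50 on EV, 0.94 to 1.78 on daf-16 RNAi and 1.69 to 2.53 on pha-4 RNAi, as labelled. The pha-4 transcript was at 4.53 to 5.86 CPM in N2 on pha-4 RNAi and 9.29 to 17.8 CPM in N2 EV. It ran the other way in the double mutant, at 3.27 to 4.22 CPM in the libraries labelled EV and 7.74 to 12.8 CPM in those labelled pha-4 RNAi. Whether these labels were exchanged cannot be told from the files, so each result for the double mutant on EV or pha-4 RNAi holds for the libraries as labelled. In eat-2 on pha-4 RNAi it was at 5.10 CPM in replicate 1 but 13.6 CPM in replicate 2, a level found in eat-2 EV (14.1 and 10.5 CPM). In mxl-2 the pha-4 transcript overlapped between EV (7.31 to 17.4 CPM) and pha-4 RNAi (6.01 to 7.68 CPM). The daf-16 transcript was at 66.9 to 85.8 CPM in N2 on daf-16 RNAi and 135 to 170 CPM in N2 EV. It was also lower on daf-16 RNAi in mxl-2 (76.9 to 115 against 159 to 201 CPM) and the double mutant (41.4 to 47.2 against 79.5 to 107 CPM). In eat-2 it overlapped, at 115.5 and 44.95 CPM on EV and 32.4 and 69.6 CPM on daf-16 RNAi. The double mutant carries library numbers 49 to 57 and the other strains 1 to 27; if these mark a batch, batch and strain cannot be told apart.

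**Figure D1:**
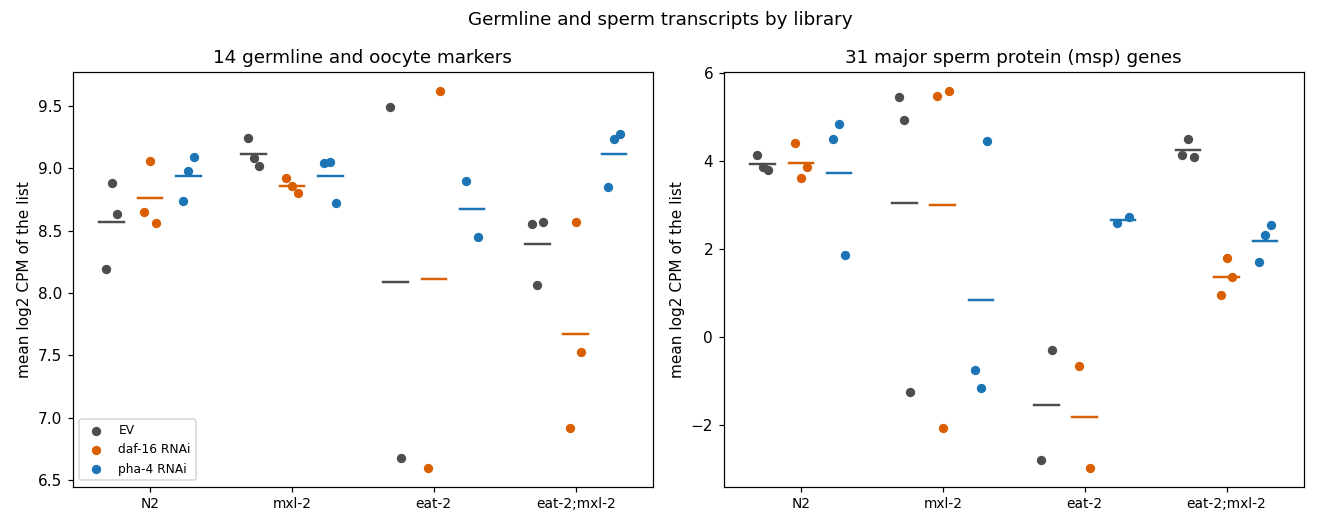
Mean log2 CPM of the germline and oocyte markers (left) and of the major sperm protein genes (right); each point is a library, lines are group means, and colours are the feeding treatments. A single eat-2 library on EV (6.68) and a single eat-2 library on daf-16 RNAi (6.60) lie at the bottom of the germline panel, and sperm transcripts differ widely between the libraries of mxl-2 on daf-16 RNAi (-2.06 to 5.59).

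Levels of different genes were compared per transcript length, in the deposited TPM values (transcripts relative to all transcripts of a library). mxl-1, the Max-like partner, was the highest of the 7 in 33 of 33 libraries, at 143 to 147 TPM in N2 EV. mxl-2 came second in 14 of the 15 libraries of N2 and eat-2, at 78.2 to 103 TPM in N2 EV. mdl-1 (53.3 to 62.7 TPM), mxl-3 (42.3 to 50.2 TPM) and hlh-30 (29.3 to 46.1 TPM) followed in N2 EV, and the ranges of the last pair overlapped. mml-1 (13.8 to 18.01 TPM) and sbp-1 (10.1 to 13.1 TPM) were the lowest there, and either of them was lowest in 15 of 15 N2 and eat-2 libraries. In the strains with the mxl-2 mutation, mxl-2 itself was lowest in 17 of 18 libraries.

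The partners of each pair were thus at unequal transcript levels. In N2 EV the mxl-2 transcript stood at 5.59 ± 0.608 times the TPM of mml-1 (SD, n = 3), and the mxl-1 transcript at 2.49 ± 0.209 times that of mdl-1 (SD, n = 3). In mxl-2 EV the former ratio was 0.376 ± 0.0706 (SD, n = 3). For mxl-1 over mdl-1 it was 1.59 ± 0.158 (SD, n = 3) in mxl-2 EV, then 4.51 ± 0.456 (SD, n = 3) in double-mutant libraries labelled EV and 7.72 ± 2.2 (SD, n = 3) in those on daf-16 RNAi. For mxl-3 over hlh-30 it was 1.23 ± 0.423 (SD, n = 3) in N2 EV, and 2.86 ± 0.427 (SD, n = 3) in double-mutant libraries labelled EV. These ratios are descriptions of levels and were not tested.

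**Figure D2:**
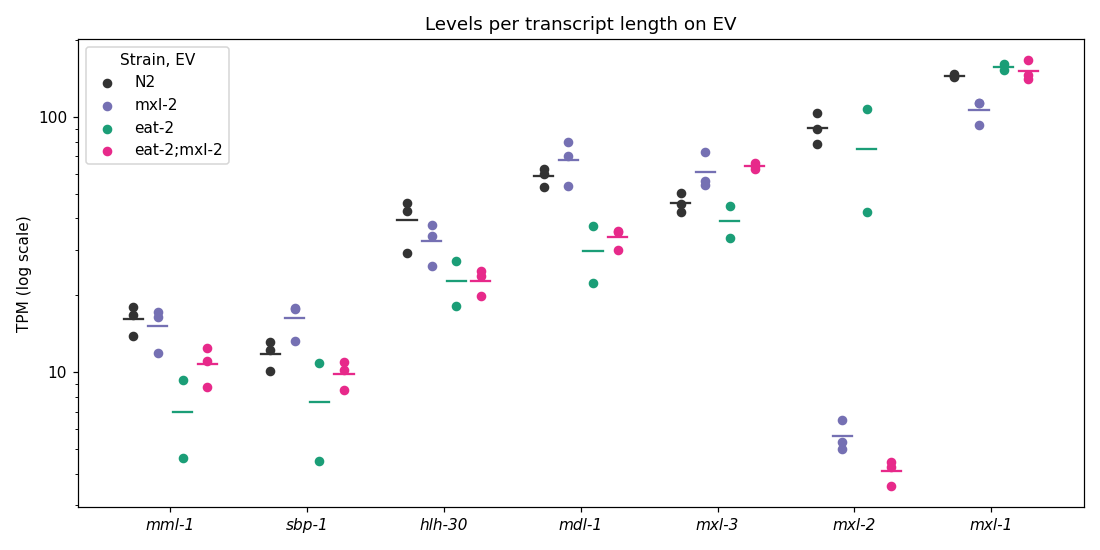
TPM (log axis) of each gene on EV, by strain; points are libraries and short lines are group means. mxl-1 lies on top at 93.4 to 167 TPM, mml-1 and sbp-1 are low, and mxl-2 falls from 78.2 to 103 TPM in N2 to 3.57 to 6.5 TPM in the strains with its mutation.

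How much of each gene's variation lay between the 12 groups also differed. Groups accounted for 96.8% of the variance of log2 CPM for mxl-2, 89.6% for mxl-1, 81.9% for hlh-30, 78.9% for mdl-1, 78.7% for mml-1, 72.2% for mxl-3 and 69.7% for sbp-1, against a median of 53.8% over all genes tested. The widest spread within a group was in eat-2 for 6 of the genes. mxl-1 was the exception, with a highest within-group SD of 0.27 log2 units, in mxl-2 on daf-16 RNAi. The corresponding SD was 1.26 log2 units for sbp-1 in eat-2 on daf-16 RNAi, where its replicates were at 17.9 and 61.5 CPM. When the 12 group means of a gene were put in order, each group overlapped the next one in all 11 steps for mdl-1, hlh-30 and sbp-1, in 10 of 11 for mml-1, mxl-2 and mxl-3, and in 9 of 11 for mxl-1. Each step compares groups with the nearest means, so these counts do not show how far groups lay apart. No count over all genes is given beside them.

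**Figure D3:**
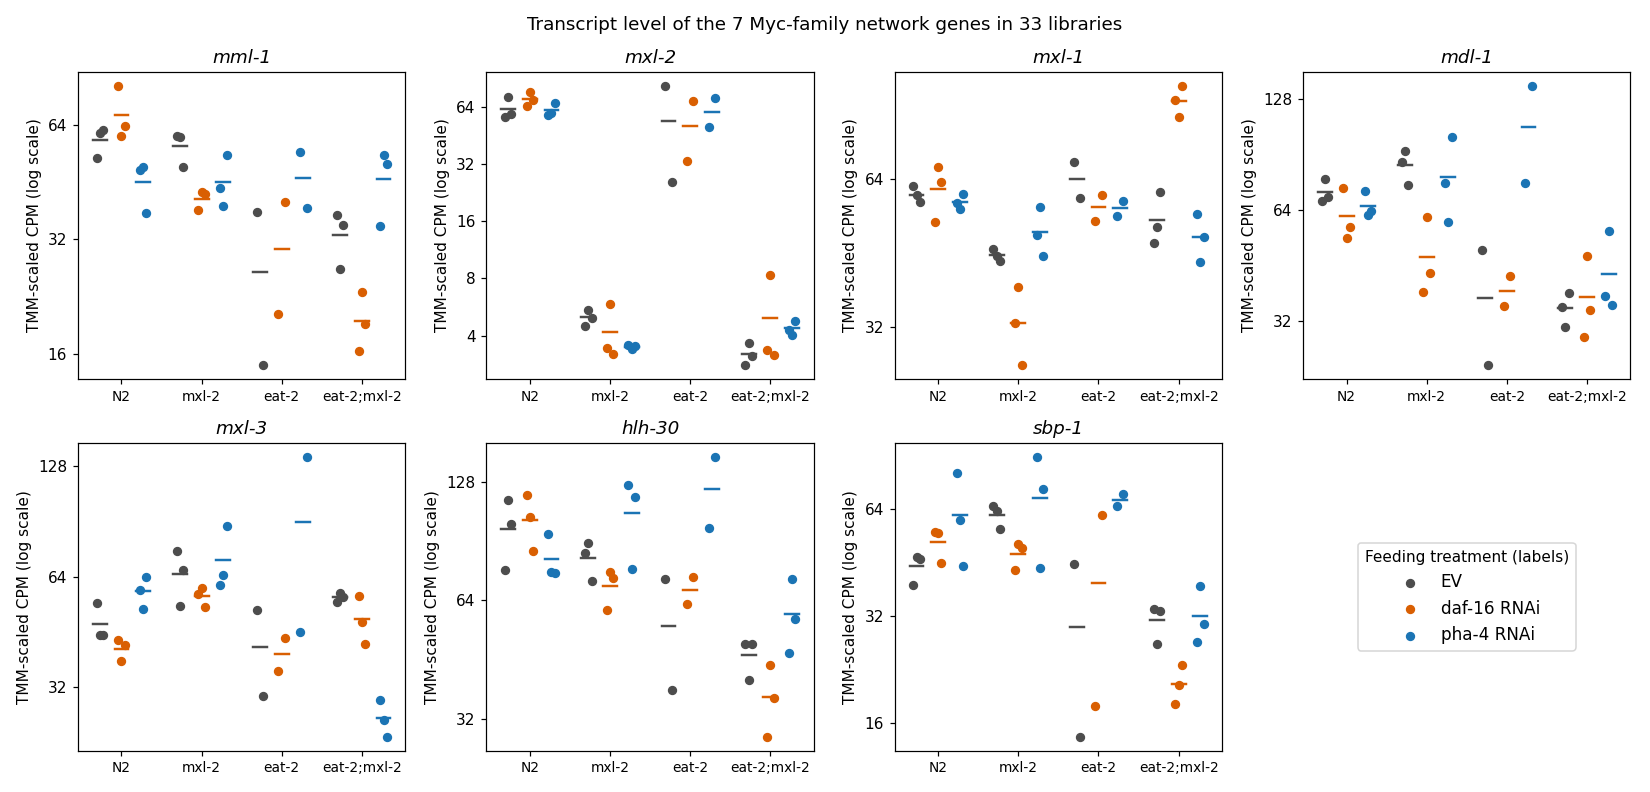
TMM-scaled CPM (log axis) of the 7 genes in all libraries, grouped by strain and coloured by feeding treatment; points are libraries and short lines are group means. mxl-2 splits into strains with and without its mutation, mxl-1 is highest in the double mutant on daf-16 RNAi (85.7 to 99.1 CPM), and mdl-1, mxl-3 and hlh-30 share a high library, eat-2 on pha-4 RNAi replicate 2 (139, 135 and 148 CPM).

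Differences between groups were tested with the quasi-likelihood test of edgeR, and a gene is said to rise or fall only at a Benjamini-Hochberg adjusted p under 0.05 over all genes tested. Most calls of members came from comparisons with the double mutant, where calls over all genes were frequent too. Against N2, 11 of 21 tests of a member (7 genes on 3 treatments) passed, 10 of them lower and 1 higher; 3 of these were the mutated gene mxl-2 itself, which leaves 8. Of all genes, 12.1% passed on EV, 20.1% on daf-16 RNAi and 1.97% on pha-4 RNAi, and of the members 4, 5 and 2 of 7. Against eat-2, 7 of 21 passed (1, 2 and 4 of 7 by treatment), where 18.4%, 2.3% and 4.12% of all genes did; mxl-2 again gave 3 of the 7, among them the 1 call on EV. Against mxl-2, 8 of 21 passed (2, 4 and 2 of 7; none was mxl-2), beside 7.86%, 35.9% and 4.11% of all genes. The member shares on EV against eat-2 (1 of 7) and on daf-16 RNAi against mxl-2 (4 of 7) are to be read against these high backgrounds. The comparisons with N2, eat-2 and mxl-2 share the double-mutant libraries, so their counts are not independent.

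In the single mutants few members moved. mxl-2 against N2 gave 4 calls in 21 tests, 3 of them mxl-2 itself, with 0.0288% of all genes called on EV, 6.25% on daf-16 RNAi and 0.0115% on pha-4 RNAi. eat-2 against N2 gave 0 of 21, with 0.789%, 0.726% and 0.0115% of all genes called. An unadjusted p below the same level was found for 9 of the 21, 3 on each treatment, beside 21.3%, 20.7% and 4.85% of all genes. DESeq2 called 4, and its share of all genes is not given here. daf-16 RNAi against EV gave 1 call in 28 tests, where 0.248% of all genes passed in N2, 0.127% in mxl-2, 0.0115% in eat-2 and 9.55% in the double mutant. By unadjusted p it was 4 of 28, 2 in mxl-2 and 2 in the double mutant. Of all genes 3.72%, 9.35%, 1.48% and 32.2% had such a p, in the same order. pha-4 RNAi against EV gave 2 in 28, where 0.323%, 0.887%, 1.17% and 1.49% passed in the same order. By unadjusted p it was 6 of 28, 5 in eat-2 and 1 in the double mutant, beside 10.4%, 10.4%, 18.3% and 16.5% of all genes. Without the mxl-2 gene, the median log2 fold change of the other 6 members in the double mutant against N2 was -0.67 on EV, -1.02 on daf-16 RNAi and -0.54 on pha-4 RNAi, against -0.05, 0.10 and -0.03 over all genes.

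**Figure D4:**
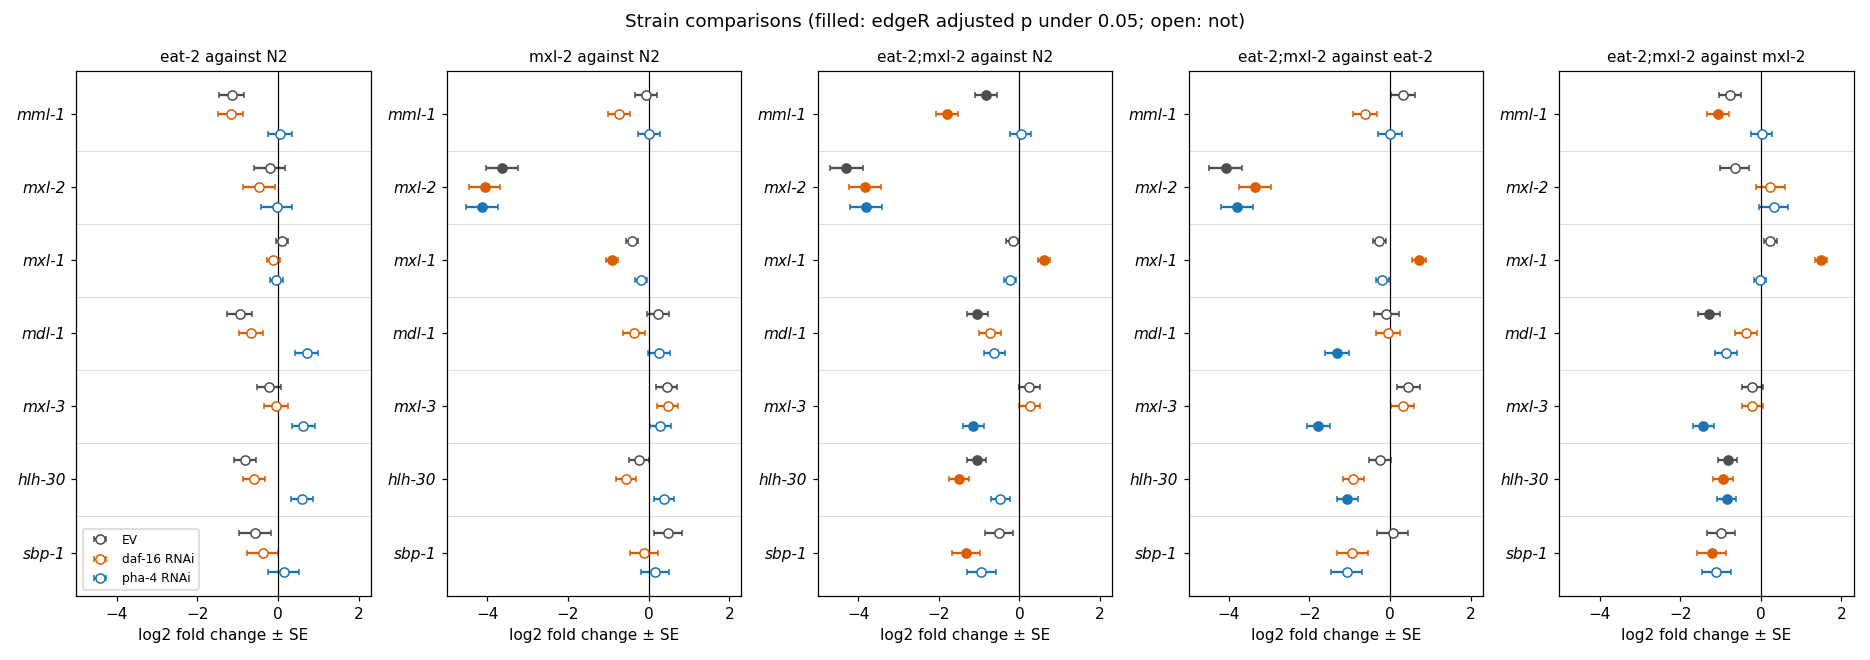
Log2 fold change ± SE of each gene in the 5 strain comparisons on EV (grey), daf-16 RNAi (orange) and pha-4 RNAi (blue), where filled points passed edgeR's adjusted p under 0.05. No point is filled in the eat-2 panel, mxl-2 lies between -3.36 and -4.29 wherever its mutation is the difference, and filled points of the other genes lie mostly left of 0 in the double mutant, with mxl-1 on daf-16 RNAi on the right.

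mxl-2 (WBGene00003510, protein coding; 4 exon blocks with 698 bases, on chromosome III from 186949 to 188131 of WBcel235, minus strand) checks the genotype labels. Its level was 56.3, 72.0 and 58.7 CPM in N2 EV, 82.3 and 25.7 CPM in eat-2 EV, 4.51, 5.45 and 4.97 CPM in mxl-2 EV, and 2.79, 3.64 and 3.12 CPM in the libraries labelled double-mutant EV. Every library of a strain with the mutation was below every library without it, on every treatment, the highest mutant value being 8.32 CPM in the double mutant on daf-16 RNAi replicate 2. The transcript fell 12.5-fold in mxl-2 on EV (log2 fold change -3.64 ± 0.39 SE, edgeR adjusted p 2.1e-05), 16.9-fold on daf-16 RNAi and 17.6-fold on pha-4 RNAi. In the double mutant it fell 19.5-fold, 14.2-fold and 14.1-fold against N2 on the same treatments. Against eat-2 it fell 16.9-fold, 10.3-fold and 13.8-fold, of which the fall on daf-16 RNAi did not pass when the pair of groups was fitted alone (-3.64, edgeR adjusted p 0.242). Counts per gene do not show which part of the transcript the remaining reads cover. Between the double mutant and mxl-2 the log2 difference was -0.64 ± 0.36 on EV, 0.24 ± 0.35 on daf-16 RNAi and 0.32 ± 0.36 on pha-4 RNAi, none of which passed (edgeR adjusted p 0.293, 0.606 and 0.743).

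mml-1 (WBGene00003378; chromosome III, 7370130 to 7374731, minus strand; 9 exon blocks, 2 annotated transcripts) encodes the Mondo-like partner of MXL-2. Loss of mxl-2 alone moved it little on EV: the libraries held 52.2, 61.0 and 62.0 CPM in N2 and 59.6, 59.3 and 49.4 CPM in mxl-2, overlapping ranges with a log2 difference of -0.06 ± 0.27 (edgeR adjusted p 0.93). On daf-16 RNAi the mxl-2 libraries (38.1, 42.6 and 41.9 CPM) lay below those of N2 (80.9, 59.6 and 63.6 CPM), at -0.73 ± 0.27 (edgeR adjusted p 0.101), which did not pass. The double mutant on daf-16 RNAi was lower again, at 16.3, 23.3 and 19.1 CPM, the lowest group for this gene. There mml-1 fell 3.48-fold against N2 (log2 fold change -1.80 ± 0.28, edgeR adjusted p 0.000126) and 2.09-fold against mxl-2 (-1.06 ± 0.27, edgeR adjusted p 0.0051). Both calls held without any single library of their groups. With the germline marker level as a covariate, the fold change against mxl-2 was -0.63 and still passed (adjusted p 0.0115).

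On EV the libraries labelled double mutant held 36.9, 26.7 and 34.9 CPM of mml-1, below all of N2. Their fold change against N2 was -0.83 ± 0.27 with an edgeR adjusted p of 0.045, which was lost when any of the 6 libraries was left out (-0.91 to -0.67, adjusted p 0.0736 to 0.223) and under 7 of 12 other settings. On pha-4 RNAi the log2 difference from N2 was 0.03 ± 0.27, with 34.8, 53.3 and 50.3 CPM in the double mutant and 48.7, 49.5 and 37.4 CPM in N2, so the groups overlapped. In eat-2, mml-1 was at 37.7 and 14.9 CPM on EV and 20.4 and 40.0 CPM on daf-16 RNAi, below every N2 library of the same treatment. The log2 differences were -1.15 ± 0.31 and -1.17 ± 0.31 (edgeR adjusted p 0.0716 and 0.0798) and did not pass. In both groups the lower value came from the library with few germline transcripts. Without that library the differences were -0.56 on EV and -0.82 on daf-16 RNAi; without the other eat-2 library they were -1.88 and -1.69 and passed (edgeR adjusted p 0.0247 and 0.0207). On TPM values the EV difference was -1.17 and passed (limma adjusted p 0.0233). In bulk RNA of whole animals, fewer cells of a type and less RNA per cell cannot be told apart, and the part of germline content in these values was not tested.

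mxl-1 (WBGene00003509; chromosome V, 11244839 to 11245926, plus strand; 2 exon blocks, 458 bases of exon) encodes the Max-like partner of MDL-1. It moved in opposite directions in the strains with the mxl-2 mutation on daf-16 RNAi. Its levels on that treatment were 52.3, 67.6 and 63.2 CPM in N2, 32.6, 38.6 and 26.7 CPM in mxl-2, 52.6 and 59.4 CPM in eat-2, and 92.5, 85.7 and 99.1 CPM in the double mutant. The double mutant was thus the highest of the 12 groups and mxl-2 the lowest, and neither overlapped its neighbour in the order. mxl-1 fell 1.87-fold in mxl-2 against N2 (log2 fold change -0.90 ± 0.15, edgeR adjusted p 0.0024). It rose 2.83-fold in the double mutant against mxl-2 (1.5 ± 0.15, edgeR adjusted p 3.8e-07), and both of these calls held without any single library. When the pair of groups was fitted alone, the former was -0.84 with an adjusted p of 0.057.

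Against N2 on daf-16 RNAi, mxl-1 rose 1.52-fold in the double mutant (0.60 ± 0.15, edgeR adjusted p 0.00591). This did not pass without N2 daf-16 RNAi replicate 1 (0.5, adjusted p 0.0526), nor with the pair of groups fitted alone (0.54, adjusted p 0.0711), and was 0.37 with the pair of eat-2 libraries poor in germline transcripts removed, which changed the scaling of all libraries. Against eat-2 it rose by 0.72 ± 0.17 (edgeR adjusted p 0.0188), a call lost with no filter on low counts (0.59), on TPM values in all 3 fits (0.55 to 0.56), with the pair of groups fitted alone (0.45), without both germline-poor eat-2 libraries (0.42), without eat-2 replicate 1 (0.52) or replicate 2 (0.69) and without double-mutant replicate 1 (0.72) or replicate 3 (0.67). On EV no strain difference of mxl-1 passed: it was at 57.4 to 61.9 CPM in N2, 43.6 to 46.1 CPM in mxl-2, 58.6 to 69.4 CPM in eat-2 and 47.5 to 60.1 CPM in the libraries labelled double mutant. The mxl-2 libraries lay below all of N2 there, at -0.41 ± 0.15 (edgeR adjusted p 0.265).

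mdl-1 (WBGene00003163; chromosome X, 6742351 to 6743899, plus strand; 3 exon blocks) encodes the Mad-like repressor. It was low in the double mutant, at 35.0, 30.9 and 38.1 CPM in the libraries labelled EV, against 67.6, 77.5 and 69.3 CPM in N2 EV and 86.5, 92.5 and 74.6 CPM in mxl-2 EV. The groups did not overlap. mdl-1 fell 2.06-fold against N2 (log2 fold change -1.04 ± 0.27, edgeR adjusted p 0.0124) and 2.44-fold against mxl-2 (-1.29 ± 0.27, edgeR adjusted p 0.00382). The former did not pass without double-mutant EV replicate 1 (-1, adjusted p 0.0522) or replicate 2 (-0.93, adjusted p 0.0728); the latter held without any single library. eat-2 EV, at 49.7 and 24.3 CPM, was also below all of N2, at -0.95 ± 0.31 (edgeR adjusted p 0.111), -0.45 without eat-2 EV replicate 2 and -1.47 without replicate 1, where it passed (adjusted p 0.0412). The double mutant and eat-2 overlapped on EV and differed by -0.09 ± 0.30 (edgeR adjusted p 0.881).

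On pha-4 RNAi the order changed through eat-2. mdl-1 was at 75.5 and 139 CPM in eat-2, the highest group mean of the 12 for this gene, and at 37.3, 56 and 35.3 CPM in the libraries labelled double mutant. It rose 2.90-fold on pha-4 RNAi in eat-2 (1.54 ± 0.33, edgeR adjusted p 0.0252). That call was lost without eat-2 pha-4 RNAi replicate 2 (0.97) and without eat-2 EV replicate 2 (1.04). The fall in the double mutant against eat-2 (-1.32 ± 0.29, edgeR adjusted p 0.01) was lost without eat-2 replicate 2 (-0.76), double-mutant replicate 1 (-1.13) or replicate 3 (-1.20). As given above, eat-2 pha-4 RNAi replicate 2 is the library whose pha-4 transcript stayed at 13.6 CPM.

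mxl-3 (WBGene00003511; chromosome X, 13349639 to 13350804, minus strand; 4 exon blocks) encodes the Max-like repressor of lipase genes. Its response to pha-4 RNAi differed between strains. In the libraries labelled double mutant it went from 54.4, 57.8 and 56.2 CPM on EV to 29.5, 25.97 and 23.5 CPM on pha-4 RNAi, the lowest group for this gene and apart from all others. In N2 it was at 54.2, 44.2 and 44.4 CPM on EV and 59.0, 52.4 and 63.7 CPM on pha-4 RNAi, and in eat-2 at 51.8 and 30.2 CPM on EV and 45.2 and 135 CPM on pha-4 RNAi. mxl-3 fell 2.13-fold on pha-4 RNAi in the double mutant (log2 fold change -1.09 ± 0.26, edgeR adjusted p 0.0315), a call that was lost when any of the 6 libraries was left out (-1.18 to -1.02). In the double mutant it fell 2.22-fold against N2 on this treatment (-1.15 ± 0.26, edgeR adjusted p 0.0161) and 2.70-fold against mxl-2 (-1.43 ± 0.26, edgeR adjusted p 0.00206). The difference from mxl-2 held without any single library. That from N2 did not pass without N2 replicate 1 (-1.14), double-mutant replicate 2 (-1.14) or double-mutant replicate 3 (-1.07). Because the pha-4 transcript ran against the labels in the double mutant, all these directions of mxl-3 rest on the labels. The double-mutant libraries labelled EV, at 54.4 to 57.8 CPM, lay within the range of N2 on pha-4 RNAi (52.4 to 63.7 CPM). Those labelled pha-4 RNAi, at 23.5 to 29.5 CPM, lay below all of N2 EV (44.2 to 54.2 CPM). An exchange of labels was not tested.

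Against eat-2 on pha-4 RNAi, mxl-3 fell 3.43-fold in the libraries labelled double mutant (-1.78 ± 0.28, edgeR adjusted p 0.00056), but by 0.73 on the log2 scale, without passing, when eat-2 replicate 2 was left out. The response to pha-4 RNAi in the double mutant minus that in eat-2 was -2.23 ± 0.41 (edgeR adjusted p 0.00748), the single interaction that passed among 49 tests. It was -1.18 without eat-2 pha-4 RNAi replicate 2 and -1.82 without eat-2 EV replicate 2, and passed in neither case. For that contrast 1.07% of all genes were called. For the other interactions on pha-4 RNAi 0% (mxl-2 minus N2) and 0.00576% (eat-2 minus N2) were, for those on daf-16 RNAi 0.00576% (mxl-2 minus N2), 0% (eat-2 minus N2) and 0.225% (double mutant minus eat-2), and for the eat-2 effect with against without the mxl-2 mutation on EV 1.27%.

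hlh-30 (WBGene00020930; chromosome IV, 4014793 to 4034951, minus strand; 12 exon blocks, 13 annotated transcripts) encodes the TFEB-like activator. Its transcripts fell in the double mutant on EV and on daf-16 RNAi. On EV they were at 76.3, 115.4 and 99.7 CPM in N2, 84.4, 89.7 and 71.8 CPM in mxl-2, 72.4 and 37.9 CPM in eat-2, and 49.5, 40.2 and 49.6 CPM in the libraries labelled double mutant. On daf-16 RNAi they were at 119, 104 and 85.3 CPM in N2, 60.5, 75.8 and 73.0 CPM in mxl-2, and 28.9, 43.8 and 36.2 CPM in the double mutant, which was the lowest of the 12 groups. The double mutant lay below all of N2 and mxl-2 on both treatments. hlh-30 fell 2.09-fold against N2 on EV (log2 fold change -1.06 ± 0.24, edgeR adjusted p 0.00524), 2.83-fold against N2 on daf-16 RNAi (-1.5 ± 0.25, edgeR adjusted p 0.000238) and 1.92-fold against mxl-2 on daf-16 RNAi (-0.94 ± 0.24, edgeR adjusted p 0.00526). These 3 calls held under all 12 other settings and without any single library.

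The remaining calls of hlh-30 were less stable. Against mxl-2 it was lower on EV (-0.82 ± 0.24, edgeR adjusted p 0.0361) and on pha-4 RNAi (-0.85 ± 0.24, edgeR adjusted p 0.045). The former was lost without mxl-2 EV replicate 1 (-0.80) or 2 (-0.75) and without any double-mutant EV replicate (-0.90, -0.77 and -0.90). The latter was lost without mxl-2 pha-4 RNAi replicate 1 (-0.72) or 3 (-0.78) and without any double-mutant replicate (-0.71, -1.03 and -0.83). On TPM values neither passed (-0.49 and -0.60). Against eat-2 on pha-4 RNAi the fall of -1.06 ± 0.26 (edgeR adjusted p 0.0218) was lost without eat-2 replicate 2 (-0.68), double-mutant replicate 1 (-0.82) or replicate 3 (-1.04), and on TPM values (-0.86). In eat-2 itself the EV libraries were below all of N2 (-0.82 ± 0.27, edgeR adjusted p 0.119) and the pha-4 RNAi libraries, at 98.0 and 148 CPM, above all of N2 (0.59 ± 0.27, edgeR adjusted p 0.982); neither passed.

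sbp-1 (WBGene00004735; chromosome III, 11428367 to 11442566, minus strand; 13 exon blocks) encodes the sterol regulatory element binding protein. It fell in the double mutant on daf-16 RNAi, to 18.2, 20.5 and 23.3 CPM, from 55.3, 54.8 and 45.3 CPM in N2 and 43.2, 50.98 and 49.9 CPM in mxl-2, with no overlap. The fall was 2.51-fold against N2 (log2 fold change -1.32 ± 0.35, edgeR adjusted p 0.0102) and 2.32-fold against mxl-2 (-1.22 ± 0.35, edgeR adjusted p 0.0112). Both were lost without double-mutant daf-16 RNAi replicate 1 (-1.24, adjusted p 0.0592, and -1.13, adjusted p 0.0531). With the germline marker level as a covariate they were -0.77 (adjusted p 0.0272) and -0.62 (adjusted p 0.0617). In that comparison with mxl-2, 4 of 14 germline markers fell (28.6%, below the 35.9% of all genes called), among them pgl-1 (-1.53), glh-1 (-1.56) and gld-1 (-1.77); their median was -1.16, against 0.04 over all genes. The part of germline content in the values of sbp-1 was not tested. On EV and on pha-4 RNAi the double mutant lay below all mxl-2 libraries, at -0.99 ± 0.35 and -1.10 ± 0.35, and did not pass (edgeR adjusted p 0.0859 and 0.0784).

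The feeding treatments changed few of these genes within a strain. In N2 none of the 7 passed on daf-16 RNAi (log2 fold changes -0.22 to 0.23) or on pha-4 RNAi (-0.37 to 0.48), and in mxl-2 none passed on either (-0.83 to -0.20, and -0.51 to 0.38). As given above, the pha-4 transcript overlapped between EV and pha-4 RNAi in mxl-2 and in eat-2, and ran against the labels in the double mutant. The daf-16 transcript overlapped between EV and daf-16 RNAi in eat-2. All 7 estimates were below 0 in mxl-2 on daf-16 RNAi; mdl-1, at 38.2, 61.1 and 43.3 CPM there, lay below all mxl-2 EV libraries (-0.83 ± 0.27, edgeR adjusted p 0.187). In the double mutant mxl-1 rose 1.75-fold on daf-16 RNAi, from 47.5, 51.04 and 60.1 CPM to 92.5, 85.7 and 99.1 CPM (0.81 ± 0.15, edgeR adjusted p 0.00195). That rise was 0.67 with the RLE size factors. On TPM values it was 0.56, passing at log2(TPM + 1) (limma adjusted p 0.0456) but not at log2(TPM + 0.1) (limma adjusted p 0.0543). The rise also did not pass without double-mutant EV replicate 1 (0.64, adjusted p 0.0549), and was 0.52 with the eat-2 libraries poor in germline transcripts removed from the fit, where it passed (adjusted p 0.0082). Its difference from the response in eat-2, 1.00 ± 0.23, did not pass (edgeR adjusted p 0.0646). Beside it, the germline markers were at a mean log2 CPM of 6.92 to 8.57 on daf-16 RNAi and 8.06 to 8.57 on EV in that strain. Its major sperm protein transcripts were at 0.94 to 1.78 on daf-16 RNAi and 4.09 to 4.50 on EV, without overlap. The part of germline or sperm content in the rise of mxl-1 was not tested. In eat-2 on pha-4 RNAi 6 of 7 estimates were above 0; apart from mdl-1 they did not pass, with sbp-1 at 1.19 ± 0.43, hlh-30 at 1.16 ± 0.30 and mxl-3 at 1.14 ± 0.32 (edgeR adjusted p 0.169, 0.0539 and 0.0758). Single libraries moved these estimates. That of mxl-3 was 0.08 without eat-2 pha-4 RNAi replicate 2 and 1.59 without replicate 1. That of sbp-1 was 0.54 without eat-2 EV replicate 2, a germline-poor library, and 2.07 without eat-2 EV replicate 1.

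**Figure D5:**
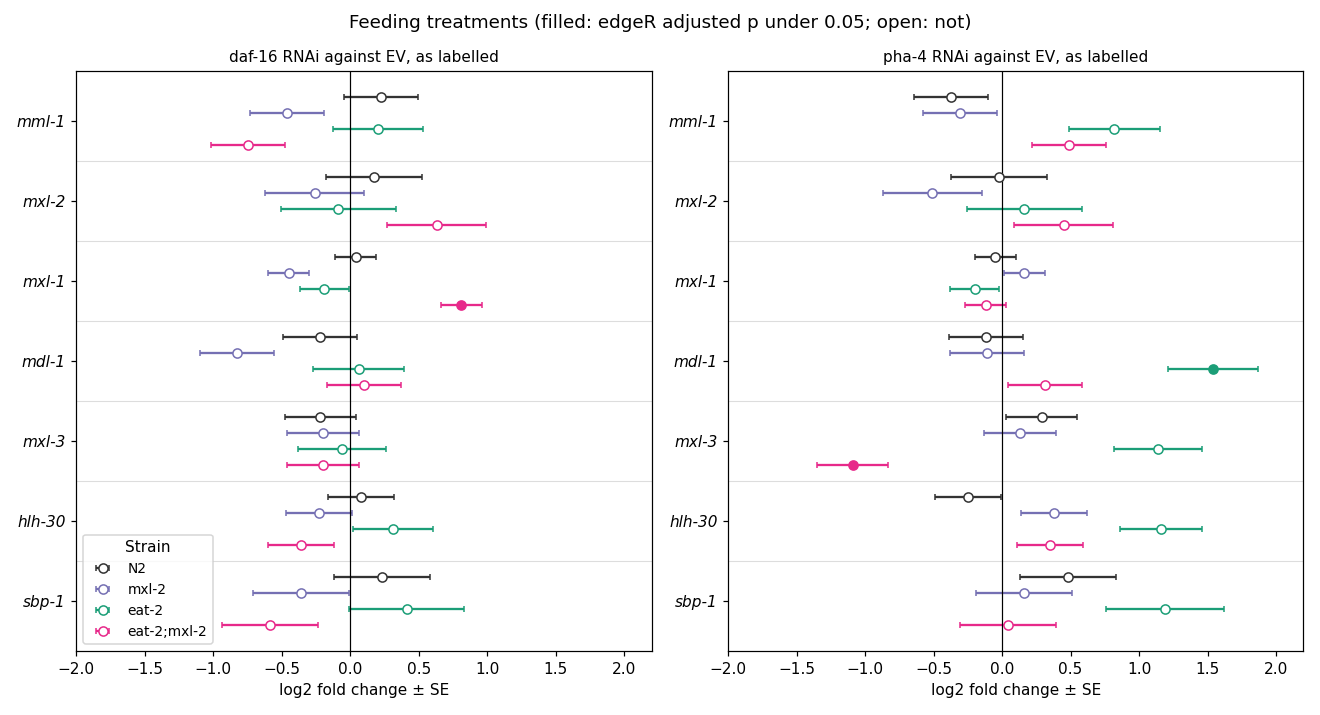
Log2 fold change ± SE of each gene on daf-16 RNAi (left) and pha-4 RNAi (right) against EV, as the libraries are labelled, with strains in colour; filled points passed edgeR's adjusted p under 0.05. The filled points are mxl-1 in the double mutant on daf-16 RNAi (0.81), mdl-1 in eat-2 on pha-4 RNAi (1.54) and mxl-3 in the double mutant on pha-4 RNAi (-1.09).

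Genes tied to the processes these factors regulate were followed through 3 lists. The lists were chosen with earlier results of these data known, so their counts beside the share of all genes are descriptions. Of a list of 12 genes, 10 of autophagy and lysosomes plus fmo-2 and ctl-2, which are neither, 7 fell and 0 rose between N2 EV and the double-mutant libraries labelled EV (12.1% of all genes were called), with a median log2 fold change of -0.97 (all genes -0.05). They included fmo-2, a flavin monooxygenase tied to longevity under dietary restriction, which went from 231 to 277 CPM in N2 to 5.29 to 7.45 CPM (-5.27 ± 0.94, edgeR adjusted p 0.00071), the catalase ctl-2 (-1.85 ± 0.28, edgeR adjusted p 0.000109) and the autophagy kinase unc-51 (-1.30 ± 0.29, edgeR adjusted p 0.00389). In mxl-2 EV, fmo-2 ranged from 19.5 to 189 CPM and in eat-2 EV from 93.2 to 626 CPM, so replicates spread widely. On TPM values 4 of the 12 were called. Thus 5 of the 7 were autophagy or lysosome genes. Against eat-2 and against mxl-2 on EV 4 of 12 fell, where 18.4% and 7.86% of all genes were called, and fmo-2 and ctl-2 were among the 4 both times (1 and 2 of 12 on TPM values, and 2 against eat-2 without the germline-poor eat-2 libraries). On daf-16 RNAi 5 of 12 fell against N2 (20.1% of all genes called), among them unc-51 (-1.53), the autophagy membrane protein gene atg-9 (-1.72) and the autophagosome tethering factor gene epg-5 (-2.09). Without the germline-poor eat-2 libraries 9 of 12 were called, in a refit whose share of all genes is not given here. The double mutant on daf-16 RNAi is a group with low germline markers, whose part in the counts was not tested. Against mxl-2 on daf-16 RNAi 2 of 12 fell, epg-5 (-2.27) and atg-9 (-0.90), and bec-1, the beclin gene of autophagy initiation, rose (0.94 ± 0.22, edgeR adjusted p 0.00313); 35.9% of all genes were called and the median of the list was -0.03. Without the germline-poor eat-2 libraries 5 fell and 1 rose there. Within the double mutant, fmo-2 (2.65) and ctl-2 (1.29) rose on daf-16 RNAi and ctl-2 (1.21) on pha-4 RNAi, as labelled; on daf-16 RNAi 1 of 12 rose and 1 fell with the RLE size factors, and 2 rose and 3 fell without the germline-poor eat-2 libraries. In mxl-2 alone on daf-16 RNAi 3 of 12 fell (6.25% of all genes called), namely fmo-2 (-3.32) and the ubiquitin-like autophagosome genes lgg-1 (-1.41) and lgg-2 (-0.99); the count was 6 without the germline-poor eat-2 libraries. In eat-2 against N2 edgeR called 0 of 12 on EV and on daf-16 RNAi. On each, 4 had an unadjusted p under 0.05, beside 21.3% and 20.7% of all genes, and DESeq2 called 1 and 2. On pha-4 RNAi 0 of 12 passed in the double mutant against N2 in edgeR, by unadjusted p or in DESeq2. The shares of all genes in this paragraph are from the main edgeR fit and do not belong to counts under other settings.

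The lysosomal lipases, which MXL-3 and HLH-30 are known to regulate in opposite directions, showed large differences. Against N2 EV, 3 of 5 fell (12.1% of all genes called) in double-mutant libraries labelled EV: lipl-4 (4.36 to 0.209 CPM on average, -4.35 ± 0.78, edgeR adjusted p 0.000683), lipl-3 (77.9 to 2.65 CPM, -4.87 ± 1.14, edgeR adjusted p 0.00635) and lipl-2 (112 to 17.1 CPM, -2.71 ± 0.68, edgeR adjusted p 0.0109). 0 rose, although 1 did with the RLE size factors. The median of the list was -2.71 (all genes -0.05). Against mxl-2 EV, where 7.86% of all genes were called, 4 of 5 fell, among them lipl-3, lipl-4 and lipl-5 (788 to 306 CPM, -1.37 ± 0.39, edgeR adjusted p 0.0315), but 0 did on TPM values. On daf-16 RNAi 1 of 5 was called in the double mutant against N2 (20.1% of all genes called), and the median of the list was 0 (all genes 0.1). That gene was lipl-1, which rose (15.6 to 135 CPM, 3.11 ± 0.77, edgeR adjusted p 0.00632). Against mxl-2, where 35.9% of all genes were called, 2 of 5 rose. They were lipl-1 (4.27 ± 0.81, edgeR adjusted p 0.000433) and lipl-2 (1.73 ± 0.66, edgeR adjusted p 0.0437), and 1 of 5 was called with the RLE size factors. Within the double mutant, 2 of 5 rose on daf-16 RNAi against EV (9.55% of all genes called), lipl-2 (2.52) and lipl-3 (4.27). Within N2, 1 of 5 was called on daf-16 RNAi (0.248% of all genes called): lipl-4 fell from 3.14 to 5.74 CPM to 0.221 to 0.361 CPM (-3.94 ± 0.77, edgeR adjusted p 0.0183). Of the factors themselves, mxl-3 did not pass in any of these comparisons on EV or daf-16 RNAi. As given above, hlh-30 fell in the double mutant against N2 and mxl-2 on both treatments, though its fall against mxl-2 on EV was less stable. The part of either factor in the lipase levels was not tested.

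Of 11 lipogenic genes, the field of SBP-1, 3 fell in double-mutant libraries labelled EV against N2 (12.1% of all genes called): the acetyl-CoA carboxylase pod-2 (-1.67 ± 0.39, edgeR adjusted p 0.00603), the stearoyl-CoA desaturase fat-6 (-1.40 ± 0.36, edgeR adjusted p 0.0124) and mdt-15, the Mediator subunit that works with SBP-1 (-1.12 ± 0.30, edgeR adjusted p 0.0166). The list's median was -0.26 and turned to 0.01 on TPM values. On daf-16 RNAi 3 fell and 1 rose against N2 (20.1% of all genes called). Among them mdt-15 went from 195 to 258 CPM in N2 to 43.4 to 62.6 CPM (-2.07 ± 0.31, edgeR adjusted p 9.69e-05). The change was -1.73 ± 0.39 for pod-2 and 1.43 ± 0.39 for the fatty acid elongase elo-5. Both sbp-1 and the germline markers were low in this double-mutant group, and the part of either was not tested. Against mxl-2 on that treatment 4 fell and 1 rose, where 35.9% of all genes were called, among them mdt-15 (-1.91 ± 0.31), the fatty acid synthase fasn-1 (-1.80 ± 0.38) and pod-2 (-1.73 ± 0.39). In mxl-2 on daf-16 RNAi, where 6.25% of all genes were called, 2 fell, the desaturases fat-5 (-1.39) and fat-6 (-1.32), and elo-5 rose (1.66). Without the germline-poor eat-2 libraries 5 of 11 were called, in a refit whose share of all genes is not given here.

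As a description over the 33 libraries, some members varied together. The Pearson correlation of log2 CPM was 0.87 between mdl-1 and hlh-30 (0.86 after removing group means), 0.85 between hlh-30 and sbp-1 (0.73) and 0.79 between mml-1 and sbp-1 (0.82). For mxl-1 the correlations with the other members ran from -0.40 to 0.31. Among 5949 genes with a symbol and a mean of at least 5 CPM, those most like mml-1 were mop-25.1 (0.958), pyc-1 (0.945) and msi-1 (0.938). For mxl-1 they were spt-4 (0.935), gtsf-1 (0.925) and cwc-15 (0.919), and for mdl-1 cab-1 (0.904), camt-1 (0.89) and fkh-7 (0.874). For hlh-30 they were pqn-18 (0.923), srap-1 (0.916) and frm-7 (0.91), and for sbp-1 gei-3 (0.921), klp-4 (0.904) and aak-2 (0.901). mxl-3 had no such close match, with jun-1 (0.748), cest-26 (0.684) and aman-3 (0.671). mxl-2 was most like siah-1 (0.699), fmo-2 (0.695) and nhl-3 (0.695). The libraries share strains, treatments and scaling, so such values describe these libraries only.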

How the data were processed

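The deposited files hold raw read counts and, separately, TPM (transcripts relative to all transcripts of a library), each for 17907 genes in 33 libraries. Per the submitters' processing notes, FastQC, Trimmomatic, STAR 2.4.2a, RSEM 1.2.23 and featureCounts 1.4.6-p5 were used with build WBcel235; which step each ran, and whether counting was by strand, are not given in the sources used here. The deposited TPM columns add up to 902200 to 987600.

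Counts were tested with edgeR 4.0.16 (R 4.3.3): TMM factors (0.7818 to 1.565), filterByExpr, a single model with 12 group means over all libraries, the quasi-likelihood F test, Benjamini-Hochberg adjustment over 17354 genes within each comparison, and a call at an adjusted p under 0.05. Standard errors are the log2 fold change over the square root of F. There were 23 comparisons of groups and 7 interactions. log2 CPM used a prior count of 2. The procedure was checked on simulated data. Alternatives used RLE factors, other filters, DESeq2 1.42.0, limma 3.58.1 on log2(TPM + 1) or log2(TPM + 0.1), a replicate block, marker covariates, only the groups compared, and leaving out libraries. Replicate numbers come from the labels; p-values measure the spread between separately synchronised populations. Replicate pairs differed by more than sampling noise (chi-square per degree of freedom 9.948 to 630.3 over 30 pairs).

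The members and gene lists were chosen with earlier results of these data known. Named were all members, the 3 genes most correlated with each, and up to 3 called genes of each list with the smallest p per comparison. Coordinates come from Ensembl release 115 of WBcel235, in which all 17907 identifiers were found. Exons on the opposite strand cover 2.71% of the mml-1 and 1.41% of the sbp-1 exons, and 0% of the others.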

Additional observations from a re-analysis of the deposited data

Results flagged for a closer look

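The response of mxl-3 to pha-4 RNAi differed between the double mutant and eat-2 by -2.23 on the log2 scale (edgeR adjusted p 0.00748, tested as an interaction), with mxl-3 lower on pha-4 RNAi in each of the 3 double-mutant libraries so labelled, and at 45.2 and 135 CPM in eat-2. The value was -1.18 without eat-2 pha-4 RNAi replicate 2 and -1.82 without eat-2 EV replicate 2, and passed in neither case. The pha-4 transcript was at 13.6 CPM in eat-2 pha-4 RNAi replicate 2 and ran against the labels in the double mutant; the part of this in the difference was not tested.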

How the results depend on the processing

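Of 34 called member results, 22 were called under each of the 12 alternatives, 18 without each library in turn, and 16 in both; none of the 12 alternatives reversed any of the 74 member results compared. The counts of member calls that moved by more than 1.5 times were as follows. Shares of all genes called under these settings are not given here. For eat-2 against N2 (0 calls), DESeq2 and the germline covariate gave 4 each and the 3 TPM fits 1 each, and leaving out a library gave 0 to 4. For daf-16 RNAi (1 call), DESeq2, the fit of only the groups compared and removal of both eat-2 libraries poor in germline transcripts gave 3 each, the germline covariate and log2(TPM + 1) with and without a filter gave 2 each, and leaving out a library 0 to 3. For pha-4 RNAi (2 calls), DESeq2 gave 4, the germline covariate 6, and the replicate block, the groups compared alone and the removal of both eat-2 libraries 1 each, with 0 to 6 over left-out libraries. For the interactions (1 call), DESeq2 gave 4 and the germline covariate 7, with 0 to 3 over left-out libraries. For the double mutant against eat-2 (7 calls) the range over left-out libraries was 4 to 10.

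Without eat-2 pha-4 RNAi replicate 2, mxl-3 in eat-2 against N2 on pha-4 RNAi reversed to -0.39 (range over left-out libraries -0.39 to 1.12) and its pha-4 RNAi response in eat-2 minus that in N2 to -0.23 (-0.23 to 1.28). Without eat-2 daf-16 RNAi replicate 2, sbp-1 in the double mutant against eat-2 on daf-16 RNAi reversed to 0.09 (-1.69 to 0.09). The cause was not tested.

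In 0 of 15 comparisons with 3 pairs was the correlation of every same-numbered pair over 0.1 (-0.80 to 0.75). In 4 of 8 comparisons with 2 pairs, each with an eat-2 group, both were (0.13 to 0.55). These correlations are of departures from the group mean, which mirror each other in a group of 2 libraries. The values of such a comparison are therefore not independent. With the replicate number as a block the double mutant gave 10 calls against N2, 7 against eat-2 and 6 against mxl-2. The calls lost under it were mxl-3 on pha-4 RNAi in the double mutant (-1.09, adjusted p 0.0525), mml-1 in the double mutant against N2 on EV (-0.83, 0.0621), and hlh-30 against mxl-2 on EV (-0.81, 0.0545) and on pha-4 RNAi (-0.86, 0.0643). The germline covariate, the removal of both eat-2 libraries and the other settings of the gene lists were added after the data were seen. Where a left-out library leaves 1 eat-2 library in a group, its spread is assumed to be that of the other groups. TPM fits shift the median gene, by 0.27 at most on EV (double mutant against mxl-2).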
